A study of Canis lupus familiaris with 77 samples.

Results

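The miRNAs of the testis were compared with those of all other tissues in a small RNA atlas of the beagle dog. A library was taken as testis when its tissue label read Testis, which gave 5 of the 76 libraries with values. The other 71 libraries came from 15 tissues, with 5 libraries each of brain, lung, liver, kidney, pancreas, heart, skeletal muscle, thymus, bone marrow, plasma, duodenum, jejunum and ileum, 4 of colon and 2 of sciatic nerve. The dogs of every group were untreated male Marshall Beagles about 10 months of age, and they were perfused with phosphate buffered saline before the organs were taken. The labels name the organ but not the part of the testis sampled, and they carry no dog number, so samples of the same dog could not be paired and p-values measure the spread between these samples. Replicate numbers follow the order of the samples within each tissue, so the same number in different tissues need not mean the same dog. Each sample was a homogenate, in which fewer cells of a type and less RNA per cell cannot be told apart.

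A miRNA is a short RNA, cut from a hairpin precursor, that guides silencing proteins to messenger RNAs carrying a match to its seed. In the mammalian testis, miRNA sets change as spermatogonia enter meiosis and develop into spermatids. The miR-34b/c and miR-449 families, which share a seed, are known for a rise in meiotic and later male germ cells and in cells with motile cilia. The miR-506 family is a fast evolving group of X-chromosome genes known mainly from testis, and miR-202 is known from the gonads of vertebrates.

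Levels are given as RPM, in which the reads of a miRNA are scaled to the reads of its library that aligned to miRNAs, so that libraries of unequal depth can be compared. The testis libraries held 265248, 274221, 2027090, 219585 and 287166 such reads in replicates 1 to 5, so that replicate 3 was by far the deepest. The other libraries held from 157871 to 7896424. A miRNA with 0 reads could have been present at up to 3 reads, which is 1.48 RPM in testis replicate 3 and 13.7 RPM in testis replicate 4. These limits and the counting intervals take in counting error alone, since PCR copies of a molecule are counted as separate reads. Names that start with cfa are dog annotations, and those that start with hsa or rno are loci placed in the dog genome from human or rat annotation. Of the 650 miRNAs with a read in any library, 528 had a read in testis.

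The 5 testis libraries were not alike, and the label was first set against its markers. The germ cell miRNA cfa-miR-34c measured 49237, 4631, 582, 93353 and 80187 RPM in testis replicates 1 to 5. Replicates 1, 4 and 5 stood high, replicate 2 was over 10 times below them, and replicate 3 was lower again. The gonadal miRNA cfa-miR-202 measured 3340.3, 241, 0.493, 4905 and 5345 RPM in the same order, and the value of replicate 3 was 1 read. The markers of the label were therefore high in 4 libraries, while in replicate 3 miR-202 was within the range of the other tissues.

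The markers of epithelium ran the other way. The epithelial miRNA cfa-miR-205 measured 415, 2028, 4495, 0 and 3.48 RPM in testis replicates 1 to 5, and the value of replicate 3 was the highest among all 76 libraries. The summed level of the 12 miRNAs of the epithelial list, the miR-200 family, miR-141, miR-429, miR-203 and miR-205, was 1976, 9113, 17185, 91.1 and 125 RPM, against a median of 1098 RPM elsewhere. Replicates 2 and 3 were thus high for epithelial miRNAs, replicate 1 was intermediate, and replicates 4 and 5 were near the lower end of the series. The smooth muscle list, the arms of miR-143 and miR-145, summed to 91771, 288402, 239933, 75447 and 82663 RPM, again with replicates 2 and 3 above the others. Replicates 2 and 3 were also the highest for cfa-miR-182, a miRNA of sensory and epithelial cells, with 1678, 11228, 20009, 209 and 143 RPM. For cfa-miR-10a, a miRNA of the HOXB cluster, they stood above the others too, with 33942, 98475, 150298, 1881 and 2284 RPM. The part of these differences in the results below was not tested, and results that rest on replicates 2 and 3 are given with and without them. Fewer testis libraries also weaken the rank-sum test by themselves, so a call lost without some libraries need not rest on those libraries.

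**Figure D1:**
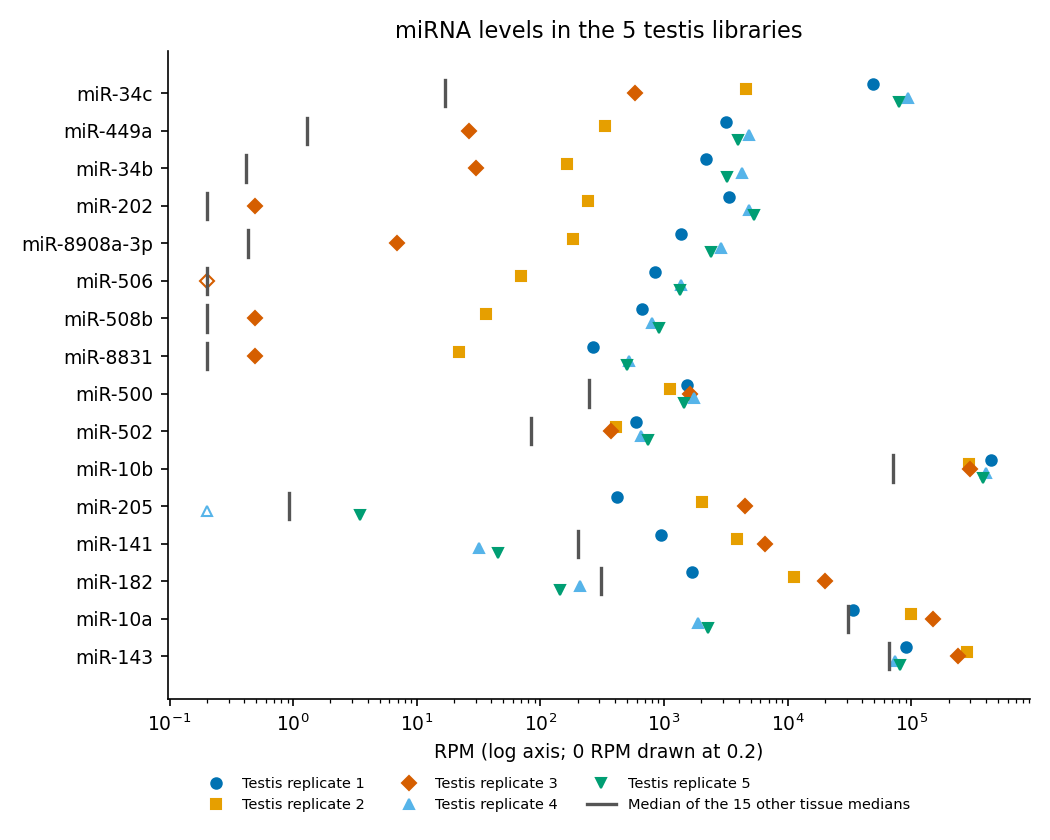
RPM on a log axis of 16 miRNAs in the 5 testis libraries, 1 symbol and colour per library, with a grey bar at the median of the 15 other tissue medians and 0 RPM drawn at 0.2. The upper 8 miRNAs have replicate 3 lowest and replicate 2 next, miR-500, miR-502 and miR-10b lie close together in all 5, and the lower 5 have replicates 2 and 3 highest.

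By the rank correlation of whole profiles, only replicate 3 was nearer to another tissue than to the other testis libraries. Across the 650 miRNAs, which are not independent replicates, replicate 3 had a mean Spearman correlation of 0.805 with the other testis libraries and of 0.874 with colon. Replicate 2 had 0.843 with testis and 0.830 with colon, so testis was the nearest by a small margin. For replicates 1, 4 and 5 the margin was wider. Their means with testis were 0.862, 0.819 and 0.844, and the nearest other tissue reached 0.774, 0.717 and 0.751. Replicate 3 was also the deepest testis library, and the part of depth in its correlations was not tested.

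By ranks of RPM, more miRNAs were higher than lower in testis, and the size of that imbalance changed with the scaling. The 5 testis libraries were tested against the 71 others by ranks, exactly and two-sided. With p adjusted by Benjamini-Hochberg over 650 miRNAs in this rank-sum test, 96 were higher in testis (14.8%) and 17 were lower (2.62%) at an adjusted p below 0.05. Among the higher miRNAs, 53 (8.15% of all) had a mean over 5 times the mean of all other libraries and are called enriched, and among the lower ones 9 (1.38%) had a mean below 0.2 times that mean. Of the 53 enriched miRNAs, 40 had reads elsewhere and a measured ratio, and 13 had no read elsewhere, so that they count as enriched only through a mean of 0. Set against 3 reads in each other library, none of these 13 reached 5-fold, and the highest lower bound was 4.65-fold. That limit is taken per library, and a limit on the reads of all other libraries pooled would be lower and the bounds higher. With levels scaled by TMM in place of the deposited totals, the split was 75 higher and 37 lower. Without replicates 2 and 3, 96 were again higher, 76 of them the same miRNAs, and 4 were lower, of which 2 were the same. Of the 53 enriched miRNAs, 50 remained enriched without these libraries.

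The enriched miRNAs made up a large share of some testis libraries. Their summed level was 7.19%, 0.777%, 0.225%, 12.9% and 11.4% of reads in replicates 1 to 5, and at most 0.744% in any other library. miR-34c was the largest single part in every testis library. In 44 of the 53, replicates 1, 4 and 5 were all above replicates 2 and 3. In 41 of the 53, at least 3 testis libraries lay above every other library, and 20 had a testis median above 100 RPM. For 9 of the 96 higher miRNAs the testis mean was below the mean elsewhere although testis ranked high, so the direction of those calls is that of the ranks and not of the means.

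**Figure D2:**
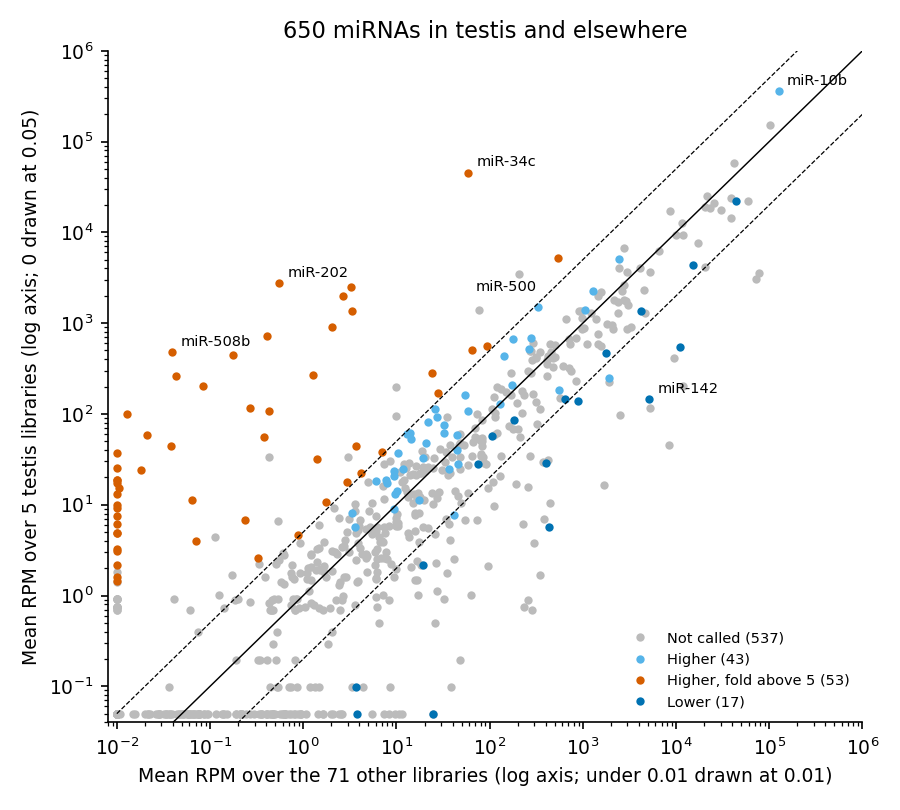
Mean RPM over the 5 testis libraries (vertical) against mean RPM over the 71 other libraries (horizontal) for 650 miRNAs, both on log axes, with the solid line at equal means and the dashed lines at 5 times and 0.2 times. Means of 0 in testis are drawn at 0.05 and means under 0.01 elsewhere at 0.01, the 53 enriched miRNAs, in orange, lie above the upper dashed line, and of the 17 lower miRNAs, in dark blue, 9 lie under the lower one.

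The miR-34b/c and miR-449 miRNAs formed the most abundant enriched group. Of the 10 miRNAs in the list of this family, 7 were enriched, where 8.15% of all miRNAs were. None of the 10 was lower and 3 did not pass the test. The median log2 fold of the list was 8.38 against -0.07 over all miRNAs with a testis read. The enriched members were cfa-miR-34c and cfa-miR-34b with their opposite arms, and cfa-miR-449a with both annotations of miR-449b.

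For cfa-miR-34c, with the testis values given above, the highest level in any other library was 1939 RPM in brain. Testis replicates 1, 2, 4 and 5 were above that level and replicate 3 was below it. The mean in testis was 45598 RPM with an SD of 42411 over 5 libraries, which was 782 times the mean elsewhere (exact rank-sum test, adjusted p = 1.17e-05). Without replicates 2 and 3 it was 1273 times (adjusted p = 2.28e-04, exact). The brain library with 1939 RPM was replicate 3 of brain, which also had the highest cfa-miR-34b level outside testis, and the other 4 brain libraries had from 21.01 to 161 RPM. By tissue medians, brain came after testis with 133 RPM and lung next with 63.3 RPM, and the ranges of brain and lung overlapped.

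The partners of miR-34c were likewise highest in replicates 1, 4 and 5, followed by replicate 2 and then replicate 3. The second miRNA of the same cluster, cfa-miR-34b, measured 2175, 164, 30.1, 4281 and 3232 RPM in testis replicates 1 to 5 and at most 97.7 RPM elsewhere, again in brain. Its mean was 732 times that elsewhere (adjusted p = 1.17e-05, exact rank-sum test). The opposite arm hsa-miR-34b-3p measured 992, 146, 56.2, 1662 and 1720.3 RPM, so all 5 libraries were above the highest level elsewhere of 26.5 RPM. Across all miRNAs, 5 (0.769%) had every testis library above every other library. For miR-34b the reads of the 3p arm were 0.456, 0.889, 1.87, 0.388 and 0.532 times those of the 5p arm, with replicate 3 alone above equality. For miR-34c the 3p arm, hsa-miR-34c-3p, held from 0.00449 to 0.0189 times the reads of the 5p arm in the 5 libraries.

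The miR-449 gene is known from multiciliated epithelium as well as from germ cells. Here cfa-miR-449a measured 3159, 332, 26.6, 4868 and 3980.3 RPM in testis replicates 1 to 5. The highest level elsewhere was 43.2 RPM in lung, which lay above replicate 3 and below the other 4. The mean in testis was 753 times that elsewhere (exact rank-sum test, adjusted p = 1.17e-05). miR-449b was counted under 2 names whose reads may be shared: hsa-miR-449b-5p had a testis median of 139 RPM and cfa-miR-449b of 3.77 RPM, and both were enriched.

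The remaining 3 names of the list did not pass the test. The family member cfa-miR-34a, which is induced by p53, measured 7.54, 14.6, 19.7, 27.3 and 38.3 RPM in testis, within the range of the other tissues, which reached 212 RPM in lung (adjusted p = 0.845, exact). The opposite arm hsa-miR-34a-3p had at most 3.65 RPM. The X-linked cfa-miR-2114, whose family is not certain, measured 56.6, 0, 0, 63.8 and 48.8 RPM and at most 2.57 RPM elsewhere. It was at 0 in replicates 2 and 3, so its adjusted p was 0.267 with all libraries and 2.28e-04 without these (exact).

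**Figure D3:**
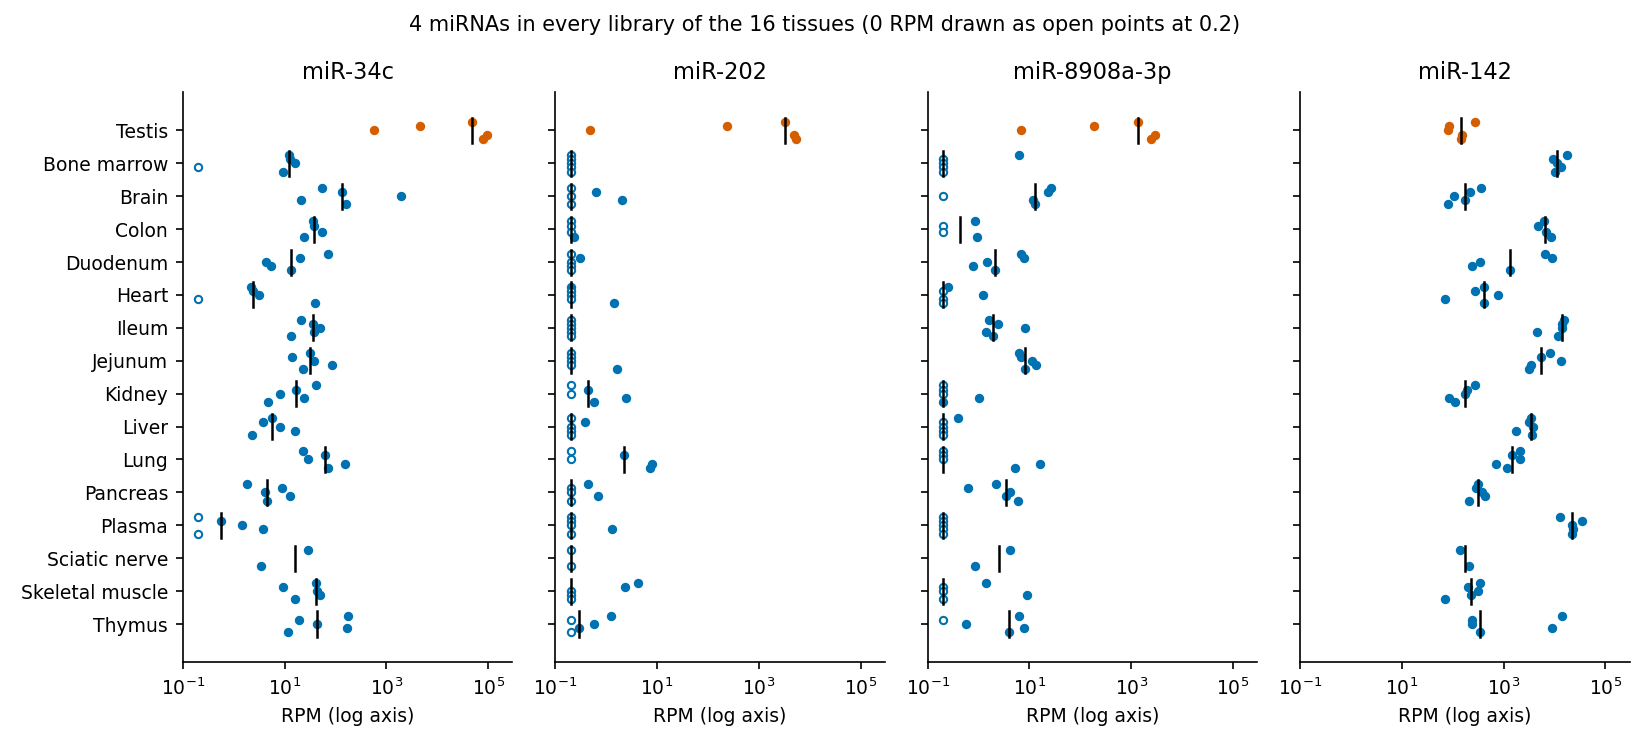
RPM on a log axis of miR-34c, miR-202, miR-8908a-3p and miR-142 in every library of the 16 tissues, with testis in orange, a black bar at each tissue median, and 0 RPM drawn as open points at 0.2. For the first 3 miRNAs the testis libraries spread over a wide range with most of them above all others, while for miR-142, a leukocyte miRNA, testis has the lowest tissue median.

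The gonadal cfa-miR-202 was far higher in testis than elsewhere. Its testis values, given above, were over 200 RPM in 4 libraries and under 1 RPM in replicate 3. Elsewhere it had 70 reads in all, spread over 22 libraries, and reached 7.95 RPM in lung. The mean in testis of 2766 RPM (SD 2529, 5 libraries) was 5060.0 times the mean elsewhere (adjusted p = 4.49e-04, exact rank-sum test). Without replicates 2 and 3 it was 8286 times, with an exact adjusted p of 2.28e-04.

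The miR-506 family and the dog miR-8908 miRNAs were enriched as a block. Of the 12 names in the list, which holds cfa-miR-506, the miR-507 and miR-508 pairs, miR-514 and cfa-miR-8908a to cfa-miR-8908e, all 12 were enriched, 11 by a measured ratio and cfa-miR-8908e with no read elsewhere. The list was chosen with the pattern of testis known, so its share cannot be judged against the 8.15% of all miRNAs that were enriched. Its median log2 fold was 11.28, or 11.02 with a member at 0 elsewhere set to its lower bound. A further member by name, cfa-miR-8908f, was enriched too. The summed level of the 12 was 4091, 357, 12.8, 7204 and 6609 RPM in replicates 1 to 5 and at most 32.6 RPM elsewhere, in brain. The sum of replicate 3 was inside the range of the other tissues, and the sums of the other 4 were above it.

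The most abundant members differed in how far replicate 3 held reads. For cfa-miR-506 the testis values were 841, 69.3, 0, 1371 and 1348 RPM, with no read in replicate 3, and the highest level elsewhere was 4.54 RPM in lung. Its mean was 1798 times that elsewhere, and the exact adjusted p was 0.012, which became 3.15e-05 without replicate 3. Without replicate 1 the exact adjusted p was 0.0527, above the threshold of 0.05. For cfa-miR-508b the testis values were 659.8, 36.5, 0.493, 802 and 916 RPM, and all other libraries together held 4 reads. That gave a ratio of means of 12308, with a counting interval from 4807 to 45171 (exact rank-sum test, adjusted p = 1.17e-05). For its neighbour cfa-miR-508a, with 132, 7.29, 0, 173 and 192 RPM in testis and 3 reads elsewhere, the ratio was 7826 with an interval from 2678 to 37948.

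In the less abundant members replicates 1, 4 and 5 again stood above the others. In testis replicates 1 to 5, cfa-miR-507b measured 60.3, 0, 0, 132 and 101 RPM, cfa-miR-514 60.3, 0, 0, 86.5 and 73.1 RPM and cfa-miR-507a 30.2, 3.65, 0, 54.6 and 38.3 RPM. Replicate 3 had no read of any of them. Elsewhere they held 3, 7 and 1 reads in all, and the exact adjusted p values were 0.00244, 0.00454 and 1.15e-04.

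Among the miR-8908 miRNAs, cfa-miR-8908a-3p was the most abundant, with 1379.8, 182, 6.91, 2910.0 and 2399 RPM in testis replicates 1 to 5. Its highest level elsewhere was 26.7 RPM in brain, above replicate 3 and below the other 4 testis libraries. The mean was 411 times that elsewhere (exact rank-sum test, adjusted p = 3.19e-04). Outside testis it had its highest tissue medians in brain, with 13.0 RPM, and jejunum, with 8.03 RPM, and the ranges of these tissues overlapped. Its 3p arm held from 7 to 13.2 times the reads of cfa-miR-8908a-5p in the 5 libraries. For cfa-miR-8908b, with 456, 18.2, 2.96, 897 and 871 RPM, all 5 testis libraries were above the highest level elsewhere of 2.06 RPM. The reads of cfa-miR-8908c, with 271, 21.9, 0.987, 383 and 341 RPM, numbered 9 outside testis. cfa-miR-8908e had a read in no other library and 33.9, 0, 0, 31.9 and 27.9 RPM in testis. Its mean was 4.64 times the level that 3 reads in each other library would give, which is a limit per library and not on pooled reads. How reads divide between near-identical miR-8908 members could not be told from counts.

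The genes of these miRNAs lie side by side on the X chromosome. Of the 356 dog miRNAs, 319 matched genes on a single chromosome by name in the RefSeq annotation of another dog assembly, UU_Cfam_GSD_1.0, and 52 of these were on X. Among the 52, 27 were higher in testis, 20 of them enriched, and 4 were lower. The median log2 fold was 2.17 on X and -0.50 on the autosomes, where 40 of 267 were higher and 23 enriched. Neighbouring genes share transcripts, so the 52 are not independent. In gene order, the 7 miR-8908 miRNAs were followed by the 6 of the miR-506 family, with no other measured miRNA between members of either set, and all 13 were enriched. The enriched miR-34b/c, miR-449, miR-202 and miR-8831 genes were autosomal.

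**Figure D4:**
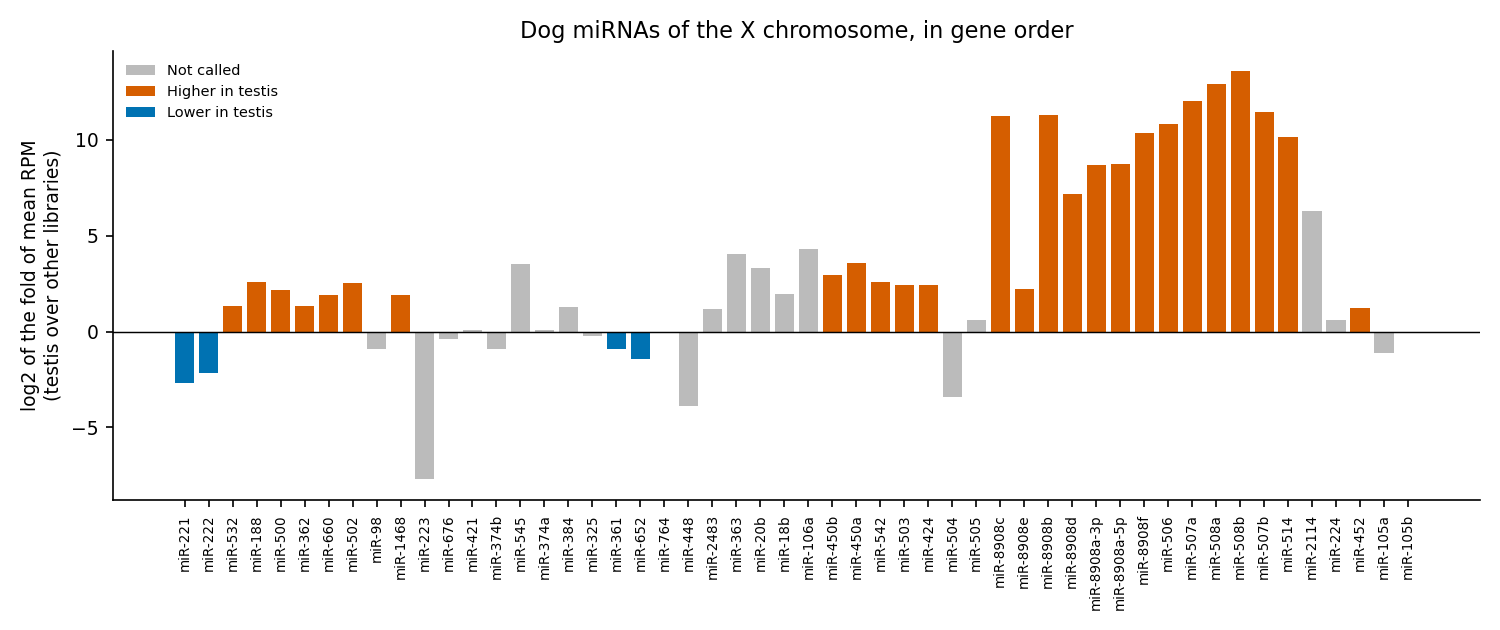
log2 of the ratio of mean RPM in testis to mean RPM elsewhere for the 52 dog miRNAs matched to the X chromosome, in gene order, with bars coloured by the rank-sum call and a miRNA at 0 elsewhere drawn at its lower bound. Higher miRNAs stand in runs from miR-532 to miR-502, from miR-450b to miR-424 and from miR-8908c to miR-514, and miR-221 and miR-222 at one end are lower.

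Further X-chromosome clusters were higher in testis by a smaller factor, with less spread between the 5 libraries. All 6 dog miRNAs from cfa-miR-532 to cfa-miR-502, a cluster hosted by the CLCN5 gene in mammals, were higher, against 14.8% of all miRNAs. Their median log2 fold was 2.03. For cfa-miR-500 the testis values were 1531, 1119.5, 1613, 1753 and 1449 RPM, all above the highest level elsewhere of 823 RPM in kidney. Its mean was 1493 RPM (SD 237, 5 libraries) and 4.50 times that elsewhere (exact rank-sum test, adjusted p = 1.17e-05). For cfa-miR-502 the values were 592, 408, 375, 651 and 742 RPM, again all above the highest other library at 246 RPM, with a fold of 5.90. Among the remaining members, cfa-miR-660 had a testis median of 759 RPM, cfa-miR-532 of 729 RPM, cfa-miR-362 of 26.4 RPM and cfa-miR-188 of 11.3 RPM, and the testis range of each overlapped those of other tissues.

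The miR-424, miR-450, miR-503 and miR-542 cluster is known from proliferating and differentiating cells of many tissues. All 7 names of its list were higher in testis and 6 were enriched, with a median log2 fold of 2.60. Of all miRNAs, 14.8% were higher and 8.15% enriched. For cfa-miR-450b the values were 592, 124, 269, 724 and 843 RPM, and for cfa-miR-450a 309, 80.2, 169, 409.9 and 459.7 RPM. Bone marrow was the next tissue, with up to 400.5 RPM of cfa-miR-450b and 127 RPM of cfa-miR-450a. Replicate 2 was the lowest testis library for both, below the bone marrow range for cfa-miR-450b and inside it for cfa-miR-450a. The folds were 7.85 and 11.96 (exact rank-sum test, adjusted p = 4.47e-04 and 2.17e-05). For cfa-miR-503, which had few reads, the call was lost without replicates 2 and 3 (exact adjusted p = 0.407).

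For the X-linked miR-106a cluster, the calls of some names changed when replicate 3 was left out. This cluster is a relative of the oncogenic miR-17 to miR-92 cluster. cfa-miR-363 measured 3992, 346, 17.3, 6134 and 6676 RPM in testis replicates 1 to 5, with a highest level elsewhere of 887 RPM in thymus. Replicates 1, 4 and 5 were above every other library, replicate 2 was inside the range of the other tissues, and replicate 3 was below every other library. The mean was 16.4 times that elsewhere, with an exact adjusted p of 0.148 with all libraries and 0.00186 without replicate 3. The dog and human name of miR-106a measured 181, 25.5, 1.48, 342 and 432 RPM, with an exact adjusted p of 0.0791 with all libraries and 8.36e-04 without replicate 3. cfa-miR-20b and cfa-miR-18b, with testis medians of 98.0 and 33.9 RPM, followed the same order. Of the 10 names of this list, none passed with all libraries and 6 passed without replicates 2 and 3. The list also holds cfa-miR-92a and cfa-miR-19b, which have further gene copies off the X chromosome, and reads of miR-106a, miR-17 and miR-20 can be shared between near-identical names. It holds hsa-miR-92a-1-5p and hsa-miR-19b-1-5p too, which are named for the autosomal copies. hsa-miR-92a-1-5p was among the 6 that passed without replicates 2 and 3. Of the 14 names of the autosomal miR-17 to miR-92 and miR-106b clusters, none was higher and 1, cfa-miR-25, was lower with all libraries. Without replicates 2 and 3, 1 of the 14 passed in either direction.

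Several other enriched miRNAs had no family in common. cfa-miR-8831, an autosomal miRNA annotated in the dog, measured 268, 21.9, 0.493, 524 and 505 RPM and held 7 reads in all other libraries together. The ratio of means was 6073 with a counting interval from 2947 to 15104 (exact rank-sum test, adjusted p = 3.02e-05). cfa-miR-146b, a relative of the inflammation-linked miR-146a, measured 5983, 1021, 491, 9295 and 9047 RPM, with brain reaching 7064 RPM. Only replicates 4 and 5 were above that brain library, and the mean was 9.45 times that elsewhere (adjusted p = 0.005, exact). cfa-miR-335, from an intron of the imprinted gene MEST, was shared with brain. It measured 86.7, 29.2, 17.3, 128 and 115 RPM in testis against a brain median of 271 RPM, and it was higher than in the other libraries together (exact adjusted p = 0.0171) without a fold above 5. That call was lost without replicate 1, 4 or 5 (exact adjusted p = 0.0624, 0.058 and 0.0585). hsa-miR-873-5p, also known from brain, was enriched with 56.6, 21.9, 7.40, 36.4 and 66.2 RPM, below the highest brain library at 122 RPM. Its fold of 5.43 was 4.75 without replicate 1 and 4.41 without replicate 5, under the limit of 5. Of the 6 names of the miR-335, miR-873 and miR-146b list, 5 were higher, against 14.8% of all miRNAs. The remaining name, hsa-miR-335-3p, did not pass with all libraries (exact adjusted p = 0.0818) but did without replicate 3 (0.0161).

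Testis also held more of the miRNAs seen in 1 tissue alone than any other tissue did. Of the 650 miRNAs, 26 had reads in testis and in no other library, against 12 in brain and at most 5 in any further tissue. Most of these rested on few reads. Of the 26, 5 had 10 reads or more in all and 9 were seen in at least 3 testis libraries, close to the 4 and 7 of the 12 in brain. cfa-miR-8813 had 6, 8 and 10 reads in replicates 1, 4 and 5 and none in replicates 2 and 3, and cfa-miR-8793 had 1, 10 and 11 in the same libraries. These 2 were chosen after their values were seen, as the most abundant of the 26 beside cfa-miR-8908e. At these depths a miRNA with no read elsewhere may be present below the limits given above. Of the 60 dog miRNAs that run by number from cfa-miR-8790 to cfa-miR-8908f, 26 were higher in testis and counted as enriched, where 14.8% of all miRNAs were higher and 8.15% enriched. Of these 26, 13 had no read elsewhere, and 5 had a testis median above 100 RPM. Over the 60, 25 had no read elsewhere, so they were among the 650 only through their testis reads and could not be called lower. The shares of the 60 thus cannot be judged against those of all miRNAs.

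Within a library, other enriched miRNAs were set against miR-34c, a ratio that does not depend on the total. For cfa-miR-202 there were 67.8, 52.0, 0.847, 52.5 and 66.7 reads per 1000 reads of miR-34c in replicates 1 to 5. For cfa-miR-506 there were 17.1, 14.96, 0, 14.7 and 16.8. Replicate 2, with its low levels, thus stood near replicates 1, 4 and 5 in both ratios, and replicate 3 stood apart. At the lowest ratio of replicates 1, 4 and 5, the 1180 reads of miR-34c in replicate 3 would go with 62.0 reads of miR-202 and 17.3 of miR-506, where 1 and 0 were counted.

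Replicate 3 was less far from the others in the ratios of some family members. For cfa-miR-34b the ratios were 44.2, 35.4, 51.7, 45.9 and 40.3. For cfa-miR-449a they were 64.2, 71.7, 45.8, 52.1 and 49.6. Replicate 3 was just above the range of replicates 1, 4 and 5 for cfa-miR-34b and just below it for cfa-miR-449a. The opposite arms differed from each other in replicate 3. For hsa-miR-34b-3p the ratios were 20.1, 31.5, 96.6, 17.8 and 21.5, with replicate 3 far above the others. For hsa-miR-34c-3p they were 7.20, 18.9, 7.63, 4.49 and 6.04, with replicate 2 highest. Replicate 3 was just above the range of replicates 1, 4 and 5 for hsa-miR-34c-3p. Of the 19 other enriched miRNAs with a testis median above 100 RPM, 1 had a replicate 3 ratio inside the range of replicates 1, 4 and 5. For cfa-miR-8908a-3p the ratio of replicate 3 was 11.9 against 28.0 to 31.2 in replicates 1, 4 and 5, from 14 reads. For cfa-miR-502, whose level differed little between the 5 libraries, the ratio of replicate 3 was 645 against 6.98 to 12.02. Of these 19, 13 had a replicate 2 ratio within 2-fold of the range of replicates 1, 4 and 5, and 4 had under 0.1 times the reads in replicate 3 that the lowest of these ratios gives.

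**Figure D5:**
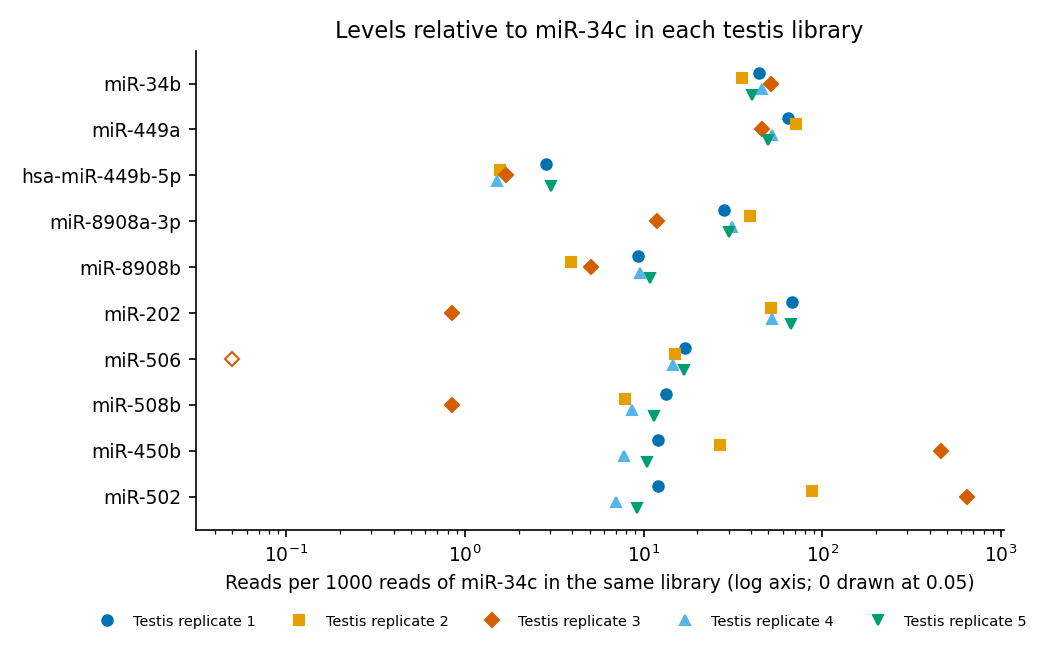
Reads of 10 miRNAs per 1000 reads of miR-34c in the same testis library, on a log axis, 1 symbol and colour per library and 0 drawn at 0.05. The ratios of miR-34b and miR-449a lie together in all 5 libraries, those of miR-202, miR-506 and miR-508b fall away in replicate 3, and those of miR-450b and miR-502 are highest in replicate 3.

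By abundance the testis libraries were led by a miRNA that was not enriched. cfa-miR-10b, a miRNA of the HOXD cluster, measured 437198, 290233, 299761, 400838 and 381149 RPM in replicates 1 to 5 and was the most abundant miRNA in each. Kidney and skeletal muscle had higher tissue medians, with ranges that overlapped that of testis. The testis mean was 2.87 times that of the other libraries (exact rank-sum test, adjusted p = 0.0218). Of the 8 names of the HOX-cluster list, miR-10 and miR-196, 2 were higher and 6 did not pass, where 14.8% of all miRNAs were higher. These 2 were cfa-miR-10b and its opposite arm, from the same hairpin.

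The 17 lower miRNAs (2.62% of all) included 6 of the blood and vessel lists, which hold 4 erythroid, 6 leukocyte and 2 endothelial names. Without replicates 2 and 3 no name of these lists was called. cfa-miR-142, a miRNA of all white blood cells, measured 268, 83.9, 81.4, 155 and 146 RPM in testis replicates 1 to 5. Testis had the lowest tissue median of the 16, and the median of the other tissue medians was 1335 RPM, but libraries of several tissues, kidney and brain among them, reached the testis range. The mean in testis was 0.0284 times that elsewhere, where plasma, ileum and bone marrow had the highest tissue medians. The exact adjusted p was 0.0147 with all libraries, 0.0532 without replicate 2, 0.051 without replicate 3 and 0.161 without replicates 2 and 3. Of the 6 leukocyte names, for miR-142, miR-150, miR-155 and miR-223, 3 were lower and 3 did not pass. Their summed level was from 260.5 to 426 RPM in testis, and 64 of the 71 other libraries were above the lowest testis library.

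The erythroid cfa-miR-451 measured 1244, 459, 155, 569 and 279 RPM in testis, with a plasma median of 82461 RPM and a median of the other tissue medians of 2006 RPM. It was the 1 of 4 erythroid names to pass (exact adjusted p = 0.0318), and the call was lost without replicate 2, 3, 4 or 5 (exact adjusted p from 0.0628 to 0.115). The endothelial cfa-miR-126 measured 6307, 4865, 2134, 3729.8 and 4879 RPM, against a median of the other tissue medians of 10172 RPM and a lung median of 46479.9 RPM. Its fold was 0.288 (exact adjusted p = 0.0115), and the second annotation hsa-miR-126-3p was lower too. Without replicates 2 and 3 neither passed (exact adjusted p = 0.127 and 0.0778). In all 17 lower miRNAs each testis library was below the median of the other libraries, and in 15 of the 17 some other library lay below the highest testis library.

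cfa-miR-221 and cfa-miR-222, X-linked miRNAs known to act on KIT and on the cell cycle inhibitor p27, were both lower. For cfa-miR-221 the testis values were 79.2, 354, 133, 72.9 and 48.8 RPM, with replicate 2 highest, and the median of the other tissue medians was 621 RPM. Testis had the lowest tissue median, and heart followed with 131 RPM and an overlapping range. The fold was 0.156 with an exact adjusted p of 0.005, and without replicates 2 and 3 these were 0.0759 and 0.00732. For cfa-miR-222 the fold was 0.225 (exact adjusted p = 0.0278), and the call was lost without replicate 1, 3, 4 or 5 (exact adjusted p from 0.0577 to 0.0871). Further lower calls were made for cfa-miR-150, cfa-miR-25, cfa-miR-197 and cfa-miR-26a, with folds of 0.0710, 0.328, 0.478 and 0.493, and none of these 4 passed without replicates 2 and 3. The calls of cfa-miR-150, cfa-miR-25 and cfa-miR-26a were lost without any 1 testis library, and that of cfa-miR-197 without replicate 1, 2, 4 or 5.

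Many other gene groups had few or no calls in the rank-sum test. None of the 18 let-7 names, the 12 names of skeletal and cardiac muscle, the 12 of epithelium, the 11 of liver, pancreas and brain, the 4 of intestine or the 6 of the miR-183 cluster was called. The embryonic miR-302 and miR-371 clusters were near absent, with 1 of 3 names seen in testis, as 1 read of cfa-miR-371 in replicate 1. Of the 61 names of the list for the imprinted DLK1-DIO3 cluster, 7 were higher and 54 did not pass, where 14.8% of all miRNAs were higher. The summed level of the list was from 1421 to 6513 RPM in testis against a brain median of 76264 RPM. It also holds cfa-miR-653 and hsa-miR-653-3p, whose gene is not in that cluster, and neither was called. Of the 5 fibroblast names, for miR-199 and miR-214, 3 were higher, and of the 4 smooth muscle names 1 was, hsa-miR-143-5p, against 14.8% of all miRNAs. Without replicates 2 and 3 the fold of cfa-miR-205 went from 18.2 to 1.83, that of cfa-miR-141 from 0.869 to 0.130 and that of cfa-miR-10a from 1.37 to 0.303, none of them called either way.

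A model of read counts over all 16 tissues gave more calls. In edgeR's quasi-likelihood fit, with testis set against the mean of the 15 other tissues on a log2 scale and p adjusted by Benjamini-Hochberg, 163 of 480 miRNAs were higher (34.0%) and 77 lower (16.0%). Scaled by library size without TMM, the split was 193 higher and 44 lower. The median log2 fold change of all miRNAs in this fit was 0.32, so single values are read relative to that. It weights each tissue alike, so a tissue with very high levels does not set the reference. Of the 82 rank-sum higher miRNAs in this fit, 80 were also higher by edgeR and none was lower, and of the 17 lower ones 15 were also lower. For cfa-miR-34c the log2 fold change was 10.38 ± 0.50 (SE), for cfa-miR-449a 10.03 ± 0.48, for cfa-miR-363 3.77 ± 0.25 and for cfa-miR-142 -3.87 ± 0.61 (edgeR adjusted p = 4.08e-29, 5.36e-27, 2.25e-21 and 1.79e-07). Each SE was worked back from the log2 fold change and the F statistic of its test, and all 16 tissues share 1 estimate of the spread. The SE and p-values of this fit thus do not measure the spread of the testis libraries alone. In this fit 11 of 11 epithelial names tested were higher in testis, and each of these was highest in replicates 2 and 3. cfa-miR-205, for example, had a log2 fold change of 8.10 ± 0.62 while its testis values ran from 0 to 4495 RPM, and it was 4.19 without replicates 2 and 3.

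Testis was set against lung, whose airways hold ciliated cells with miR-449, and against brain, which shares several miRNAs with testis. Against lung, 142 of 480 miRNAs were higher in testis (29.6%) and 82 lower (17.1%) by edgeR, and DESeq2 gave 190 and 51. Lung had cfa-miR-449a at 0.514 to 43.2 RPM, and testis was higher by 7.02 ± 0.99 on the log2 scale (edgeR adjusted p = 3.61e-08). The median over all miRNAs in this contrast was 0.56. cfa-miR-34a was the family member that lung had more of, with a log2 difference of -3.09 ± 0.41 (edgeR adjusted p = 3.65e-09). All 12 miR-506 and miR-8908 names of the list were higher in testis than in lung, and the X-linked cfa-miR-500 was higher by 1.32 ± 0.28. Of the 6 leukocyte names 6 and of the 2 endothelial names 2 were lower in testis than in lung. For cfa-miR-205 the difference from lung was 4.28 ± 1.19 (edgeR adjusted p = 0.0021), and without replicates 2 and 3 it was 0.12 (edgeR adjusted p = 0.996).

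Against brain, 142 of 480 miRNAs were higher in testis (29.6%) and 173 lower (36.0%), with a median over all of -0.15. cfa-miR-34c was higher in testis by 6.78 ± 1.03 and cfa-miR-34b by 6.61 ± 0.96 on the log2 scale (edgeR adjusted p = 4.66e-08 and 2.33e-08). All 12 miR-506 and miR-8908 names were higher in testis than in brain as well. The miRNAs that testis shared with brain did not follow. cfa-miR-335 differed by -1.60 ± 0.48 (edgeR adjusted p = 0.00298) and was lower in testis, hsa-miR-873-5p differed by -0.29 ± 0.54 (edgeR adjusted p = 0.648), and cfa-miR-146b by 1.32 ± 0.62 (edgeR adjusted p = 0.0549). Without replicates 2 and 3 the differences of cfa-miR-335 and cfa-miR-146b were -1.08 and 1.99 (edgeR adjusted p = 0.0755 and 0.00571). Of the 46 names of the DLK1-DIO3 list tested, 37 were lower in testis than in brain and 27 were higher in testis than in lung. Both contrasts use the same testis libraries.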

How the data were processed

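Small RNA libraries were made from homogenates of 16 beagle dog tissues. The authors used OSA to place reads on CanFam3.1 without mismatches and counted overlaps with miRNA annotations, and the deposited table holds counts per miRNA and library. It also holds the authors' RPM, which were used for levels and the rank-sum test. A row absent for a library was taken as 0. Libraries were grouped by tissue label. 1 name in the table matched no label and was not used, and 1 labelled colon sample had no values. Totals ran from 157871 to 7896424 reads, so 3 reads equal 0.380 to 19.0 RPM. The 10 pairs of testis libraries were checked for a library deposited more than once, and none was found.

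Each of 650 detected miRNAs was tested with the rank-sum test (two-sided, exact, midranks for ties; scipy 1.17.1), and counts by the edgeR 4.0.16 quasi-likelihood test in R 4.3.3 with TMM scaling and filterByExpr, which kept 480. P-values were adjusted by Benjamini-Hochberg with a threshold of 0.05. DESeq2 1.42.0 was an alternative. The procedures were tested on simulated data. A ratio against libraries with no reads is a lower bound at 3 reads per library (a mean of 4.04 RPM), and one against libraries with at most 3 reads each has a 95% exact Poisson interval. The lower bound allows 3 reads in every library, while the interval is for reads pooled over the other libraries, so they cannot be compared. Named miRNAs were the members of the miR-34, miR-506, miR-202 and miR-335 lists, those the study lists for testis, and the 10 highest and 10 lowest folds among calls with a median above 100 RPM in testis (higher) or of the other tissue medians (lower). Other miRNAs named, from the marker, X-chromosome and cluster lists, were chosen after their values were seen. Members and lists were chosen with earlier results of these data known. Gene neighbours came from a RefSeq table of UU_Cfam_GSD_1.0, in which 319 of 356 dog names matched 1 chromosome and 32 more than 1.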

Additional observations from a re-analysis of the deposited data

Results flagged for a closer look

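Among the 44 named miRNAs, 5 had 1 testis library far from the other 4, by the gap to the nearest library as a share of the range of all 5 libraries. For independent values from a normal distribution, chance gives such a gap in about 1 in 20 groups. RPM need not be normal and the 44 miRNAs are not independent, so the 5 cannot be judged against that rate. Replicate 2 was far above the others for cfa-miR-221, where the share was 0.723 (354 RPM, with the next library at 133 RPM), and for hsa-miR-34a-3p, where it was 0.865 (3.65 RPM against 0.493 RPM, from few reads). Replicate 3 was the highest for cfa-miR-197, with a share of 0.711 (137 RPM against 86.5 RPM), and for cfa-miR-26a, with a share of 0.712 (24025 RPM against 21866 RPM). Replicate 5 was the highest for hsa-miR-873-3p, with a share of 0.727 (34.8 RPM against 11.3 RPM).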

How the results depend on the processing

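Over 170 results and 1546 values under the alternatives, 1450 kept direction and side of the threshold, 79 fell short of it, 17 came to pass it and 0 reversed. In the rank-sum comparison, TMM scaling gave 37 lower in place of 17, and the higher share of all calls was 67.0% in place of 85.0%. Keeping only miRNAs with a tissue median above 100 RPM left 49 higher and 21 enriched, by its construction. Folds of medians with 1 RPM added gave 4 with a fold below 0.2, and thinning every library to the smallest gave 10 lower and 4 with a fold below 0.2. Leaving out replicates 2 and 3, chosen after seeing the data, gave 4 lower and 4 with a fold below 0.2. Leaving out 1 testis library gave 62 to 87 higher, with 62 without replicate 1, and 7 to 10 lower, so leaving out any 1 of them lowered the lower count by over 1.5 times (10, 9, 7, 8 and 10 without replicates 1 to 5). A smaller testis group alone weakens the rank-sum test, and its part in the lost calls was not tested. Leaving out 1 library gave 46 to 56 enriched and 3 to 7 with a fold below 0.2. By edgeR, scaling by library size alone gave 44 lower in place of 77 with 81.4% of calls higher in place of 67.9%, and treating all other samples as 1 group gave 29 higher and 26 lower. DESeq2 gave 51 lower against lung in place of 82, with a median of all log2 fold changes of 1.44 in place of 0.56 and 78.8% of calls higher in place of 63.4%. Without 1 testis library edgeR gave 120 to 140 higher and 72 to 80 lower against the other tissues, 108 to 120 and 92 to 104 against lung, and 128 to 137 and 171 to 179 against brain. The causes were not tested. No paired analysis was possible because the labels carry no dog or replicate number. With 219585 to 287166 reads in 4 testis libraries, a level under about 10 RPM rests on few reads.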
